A study of Mus musculus with 2 samples.

Results

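Protocadherins are the largest family of the cadherin superfamily, calcium-dependent adhesion proteins of the cell surface. In the RNA of mouse lungs with and without endothelial deletion of Foxf1, every gene whose symbol begins with Pcdh was taken as a member. This gave 71 of the 22072 genes in the deposited tables, listed in 90 of the 28107 transcript rows. No value entered this match of symbols, but the family itself was chosen by its FPKM levels in these same 2 libraries, so the levels are given as a description. The members are 14 genes of the alpha cluster, 22 of the beta cluster, 22 of the gamma cluster, 1 read-through record that joins the alpha and gamma clusters, and 12 genes outside the clusters.

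The mice were of the C57/BL6 strain. Both groups carried floxed Foxf1 alleles (Foxf1 fl/fl). The control mice had these alleles and no Cre, and the knockout mice carried Pdgfb-iCreER as well (a Cre recombinase that tamoxifen activates, driven by the Pdgfb gene's control region in endothelial cells). Lung RNA of multiple mice was pooled for each genotype and sequenced as 1 library, so that every difference given here is between 2 pools and has no replicate check. How many mice were pooled, their sex and age, when tamoxifen was given and which stretch of Foxf1 is deleted were not given in the sources used here.

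Alpha, beta and gamma genes lie in 3 adjoining clusters. In the alpha and gamma clusters each transcript joins 1 variable exon, which encodes the extracellular and transmembrane part, to constant exons shared by the whole cluster, while beta genes consist of a single coding exon with no constant part. In neurons each cell switches on its own combination of these promoters through CTCF and cohesin, and like combinations recognise each other across membranes, which lets a neurite tell itself from its neighbours; the C-type genes at the end of the alpha and gamma clusters largely escape this choice. The non-clustered delta-1 and delta-2 protocadherins are separate genes with long cytoplasmic tails of their own, and Pcdh12 is known as an adhesion protein of endothelial cell contacts.

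Levels are FPKM, fragments per kilobase of transcript, scaled to the mapped fragments of the library, summed over the transcript rows of a gene. From the coverage that 1 read adds, transcripts received an estimated 10.4 M reads in the knockout pool and 13.2 M in the control pool. Where 2 values stand together, the knockout pool comes first. Intervals after a ratio are 95% exact conditional (Clopper-Pearson) intervals from these approximate reads and cover counting error only. Foxf1 itself, listed as Foxf1a, was at 15.7 FPKM in the knockout pool and 72.1 in the control pool, 4.59-fold lower in the library labelled knockout. The lung markers Sftpc, Scgb1a1, Ager and Pecam1 were all detected at high levels. All 90 protocadherin rows had the status OK in both libraries. In whole lung, fewer cells of a type and less RNA per cell cannot be told apart.

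The family as a whole was present at much the same level in both pools, and its composition differed. The 71 members summed to 177 FPKM in the knockout pool and 165 in the control pool, a ratio of 1.07. The gamma cluster supplied 48.9% of the family's FPKM in the knockout pool and 41.96% in the control pool, and the beta cluster 14.1% and 11.5%. The alpha cluster supplied 0.376% in the knockout pool and 3.67% in the control pool, so that it was the one cluster with a lower level in the knockout pool. The genes outside the clusters summed to 64.9 FPKM in the knockout pool and 70.9 in the control pool.

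**Figure D1:**
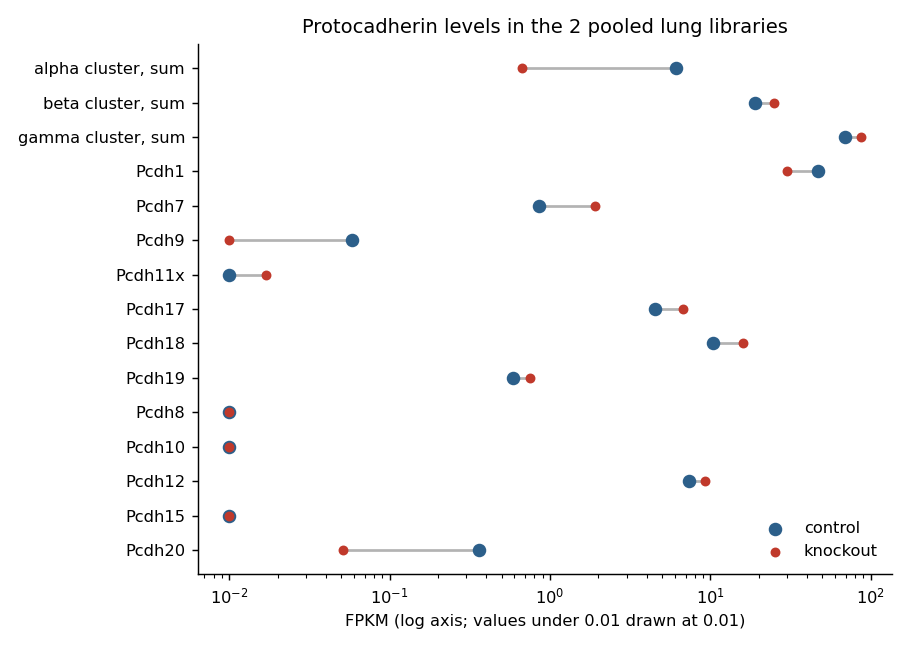
FPKM in the 2 pooled lung libraries (log axis, 1 point per library) for the summed alpha, beta and gamma clusters and for each non-clustered protocadherin. The alpha sum and Pcdh1 are lower in the knockout library, and the beta and gamma sums, Pcdh7, Pcdh17 and Pcdh18 are higher.

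Members were counted in 2 ways, since many are rare. By the plain FPKM ratio, among the 50 members with 20 or more approximate reads over both libraries, 11 were higher by 1.5-fold or more in the knockout pool, where 13.1% of all 14296 genes with as many reads were, and 3 were at least 1.5-fold lower, where 8.43% of all genes were. The knockout library had the higher level for 35 of the 50, against 55.9% of all genes. The median ratio of the 50 was 1.24, and that of all genes 1.04. On the log2(FPKM + 1) scale, which shrinks differences of rare genes, 27 members had a mean of 1 FPKM or more. Of these, Pcdhgc5 and Pcdh7 were at least 1.5-fold higher (9.41% of all 12929 genes over that level were) and Pcdhac2 and Pcdh1 at least 1.5-fold lower (4.63% of all genes were). The call of Pcdhgc5 rests on a mean of 1.03 FPKM, which fell under the level of 1 with each of 3 other scalings. Its plain ratio stayed between 4.01 and 4.08. That of Pcdh7 was lost when its most abundant row stood for the gene, because the row's mean of 0.856 FPKM is under the level of 1. The plain ratio of that row was 2.997. The median log2 difference of the 27 was 0.20, beside 0.05 for all genes over that level. The other 21 members passed neither filter, and 12 of the 71 were under 0.001 FPKM in both libraries, as 21.5% of all genes were.

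**Figure D2:**
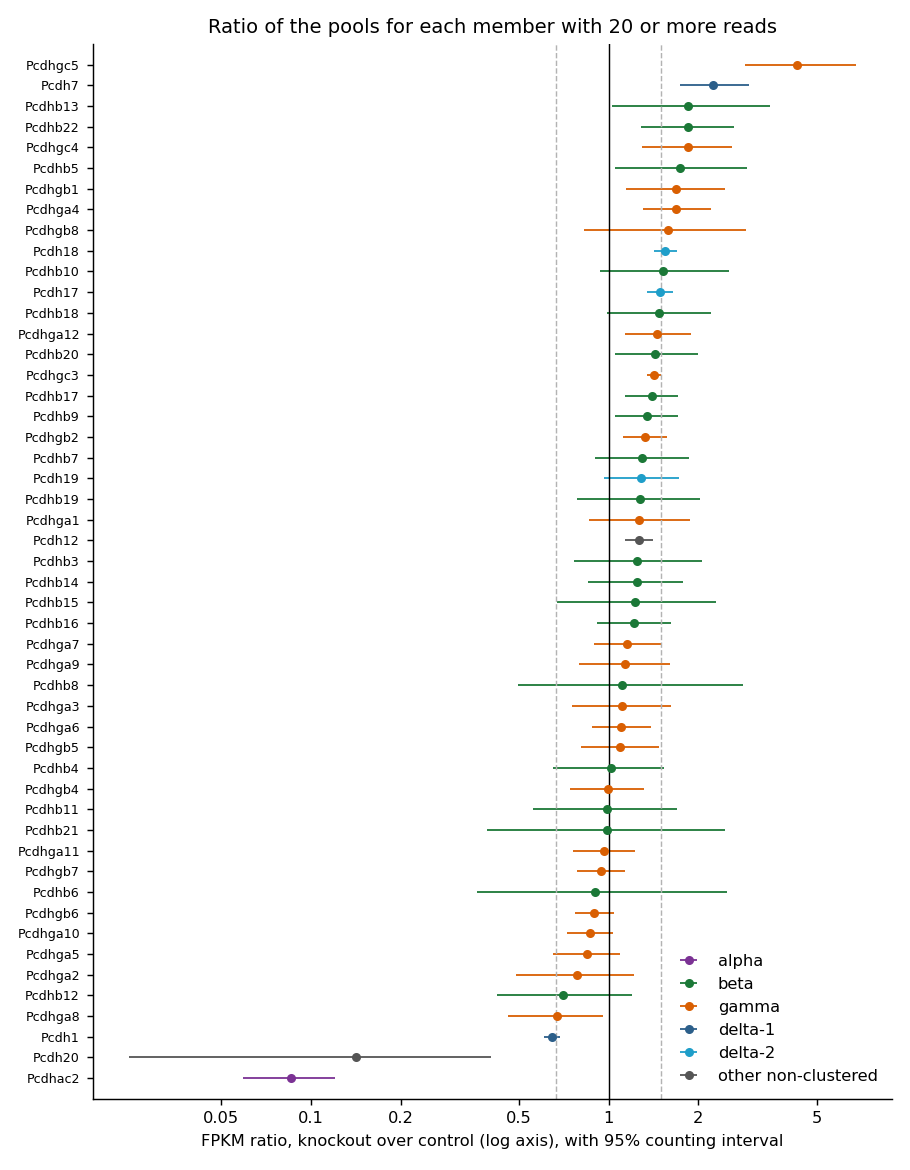
Ratio of knockout to control FPKM (log axis) for each of the 50 members with 20 or more approximate reads, with its 95% counting interval; dashed lines mark 1.5-fold in either direction. Pcdhac2, Pcdh20 and Pcdh1 lie beyond the lower line, and Pcdhgc5 lies farthest to the right.

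The alpha cluster (chromosome 18, 37089939 to 37347314 in mm9) was represented in these lungs by a single gene. Pcdhac2, the C-type member nearest the constant exons, was at 0.504 FPKM in the knockout library (about 34.9 reads) and 5.91 in the control pool (about 528 reads). That is 11.7-fold lower in the knockout pool (8.29- to 17.0-fold), and it ranked 10th from the lowest ratio among the 14296 genes with 20 or more reads. The other C-type member, Pcdhac1, was listed at about 0 in the knockout pool and at 0.0917 FPKM in the control pool, about 8 reads. Of the 12 remaining alpha genes 8 were under 0.001 FPKM in both libraries, and Pcdha5, Pcdha9, Pcdha10 and Pcdha12 reached at most 0.0565 FPKM, a level that a few reads give. The lower alpha sum, 0.668 FPKM in the knockout pool and 6.07 in the control pool, therefore rests on Pcdhac2. Without it the sums were 0.164 and 0.157 FPKM.

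The assignment of reads within the alpha and gamma clusters depends on the variable exons, because the constant exons are common to all. All 14 alpha rows end within 5 bases of each other, as do 21 of the 22 gamma rows. Cut into windows of 48 bases, about the length that 1 read covers, GENCODE M21 transcripts of the alpha genes had 35.5% to 51.8% of their windows in no other protocadherin gene, and Pcdhac2 had the highest share. Gamma genes had 33.9% to 58.7% of windows of their own, apart from Pcdhgb8 at 79.7%. The transcript matched to Pcdhgb8 has 2796 bases, where its row has 4617, so its share is not comparable with the others. Beta genes had 87.2% to 100%, and each non-clustered gene with a matched transcript 100% (Pcdh11x had none). Some matched beta transcripts are longer than their rows, such as Pcdhb14 (8695 and 3438 bases) and Pcdhb22 (6609 and 3067 bases). Their shares describe the matched transcripts and may be lower over the rows. When transcripts of all other genes on either strand were searched as well, the share of own windows was lower for some members. It was 23.7% for Pcdhgc3 and 0.982% for Pcdhga10, 35.6% for Pcdhb12, and 61.6% and 74.96% for the 5610-base and 7741-base rows of Pcdh7, while Pcdhac2 stayed at 51.8% and Pcdh1, Pcdh12, Pcdh18 and Pcdh20 at 100%. How the authors' quantification divided reads of shared exons, and whether it used strand, is not known, so the levels of members with many shared windows are less certain.

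**Figure D3:**
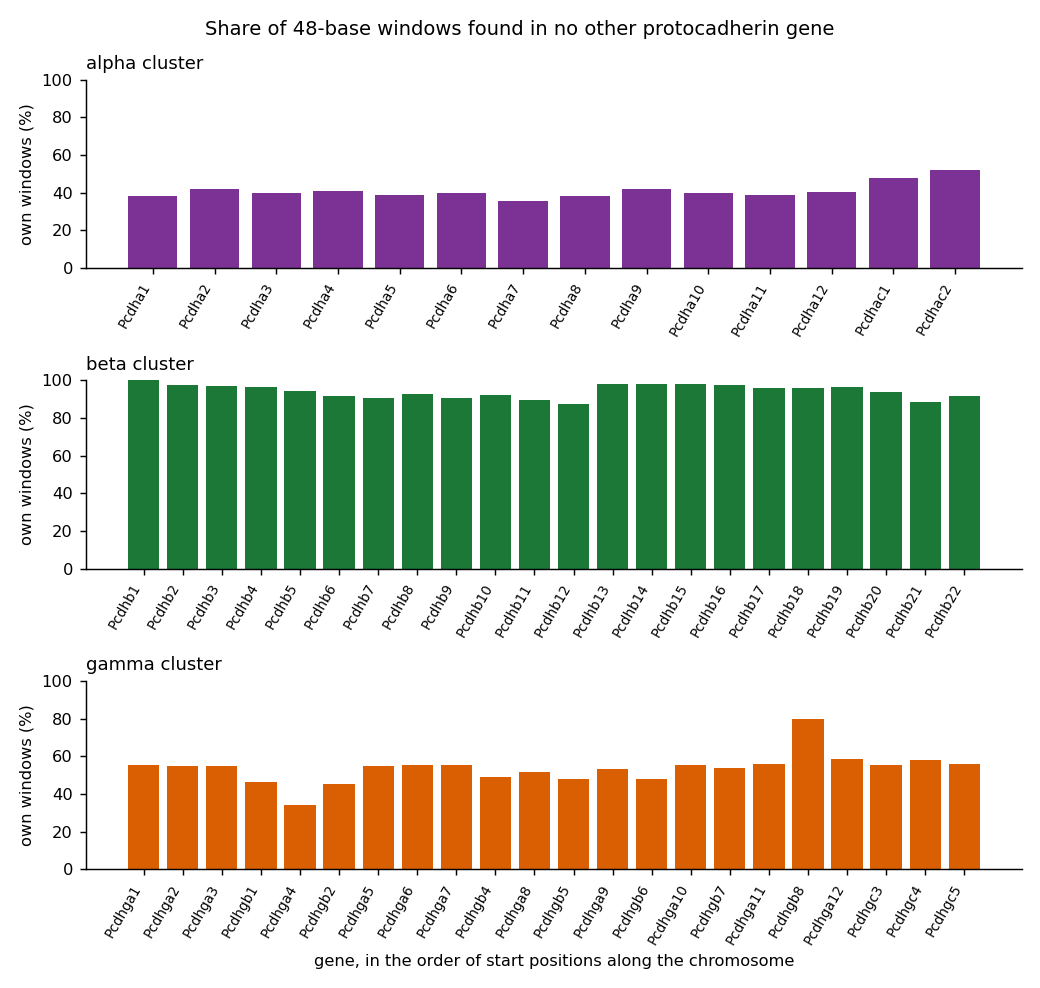
Share of 48-base windows of each clustered gene's transcript that occur in no other protocadherin gene, in percent, with genes in the order of their starts along the chromosome. The beta genes stand at 87.2% or more, and the alpha genes at 51.8% or less. Some matched transcripts differ in length from the rows whose FPKM is given.

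Most beta genes were somewhat more abundant in the knockout pool. The cluster (chromosome 18, 37424652 to 37681073) summed to 25.1 FPKM in the knockout pool and 18.9 in the control pool, 1.33-fold higher (1.22 to 1.44). Of the 20 beta genes with 20 or more reads, 16 had the higher level in the knockout pool and 4 the lower, where 55.9% of all genes with as many reads were higher. Their median ratio was 1.26, beside 1.04 for all these genes. Pcdhb17 was the most abundant, at 4.67 FPKM in the knockout pool and 3.36 in the control pool (ratio 1.39, 1.13 to 1.71), followed by Pcdhb9 at 3.64 and 2.72 (ratio 1.34, 1.05 to 1.71). Pcdhb22, the last gene of the cluster, was at 1.99 and 1.08 FPKM (ratio 1.84, 1.28 to 2.64). None of the 7 beta genes over 1 FPKM passed 1.5-fold on the log2(FPKM + 1) scale. By the plain ratio 4 of these 20 beta genes had a 1.5-fold or higher level in the knockout pool, where 13.1% of all genes had. They were Pcdhb5, Pcdhb10, Pcdhb13 and Pcdhb22. Among beta genes with 20 or more reads, Pcdhb13 had the highest ratio, 1.85 (1.02 to 3.49), and Pcdhb12 the lowest, at 0.634 FPKM in the knockout pool and 0.900 in the control pool. The interval of Pcdhb12, 1.19-fold higher to 2.37-fold lower, spans equality. The first gene, Pcdhb1, was listed at 0 in both libraries.

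The gamma cluster (chromosome 18, 37821599 to 38001526) was the most abundant, and the difference between the pools lay mainly in its C-type genes. It summed to 86.8 FPKM in the knockout pool and 69.3 in the control pool, 1.25-fold higher (1.21 to 1.30), and all 22 genes had 20 or more reads. The 12 genes of the A subfamily summed to 20.5 and 19.5 FPKM (ratio 1.05, 0.974 to 1.14), and the 7 of the B subfamily to 17.9 and 16.8 (ratio 1.07, 0.985 to 1.16). Both intervals include equality. The 3 C-type genes summed to 48.3 FPKM in the knockout pool and 33.0 in the control pool (ratio 1.46, 1.39 to 1.55).

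Pcdhgc3, the most abundant protocadherin of all in the knockout library, accounted for most of that. It was at 45.4 FPKM in the knockout pool and 31.9 in the control pool (ratio 1.42, 1.35 to 1.503), which is 52.3% and 46.0% of the gamma total. Pcdhgc4 was at 1.28 and 0.696 FPKM (ratio 1.84, 1.29 to 2.60). Pcdhgc5 had the highest ratio of any member with 20 or more reads, at 1.68 FPKM in the knockout library (about 101 reads) and 0.392 in the control pool (about 30.4 reads), 4.28-fold higher (2.87 to 6.77). The C-type genes of the 2 clusters thus went in opposite directions: the 3 gamma genes were higher in the knockout pool and Pcdhac2 was lower. Without Pcdhgc3 the other gamma genes summed to 41.4 and 37.4 FPKM, a ratio of 1.11 (1.05 to 1.17).

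**Figure D4:**
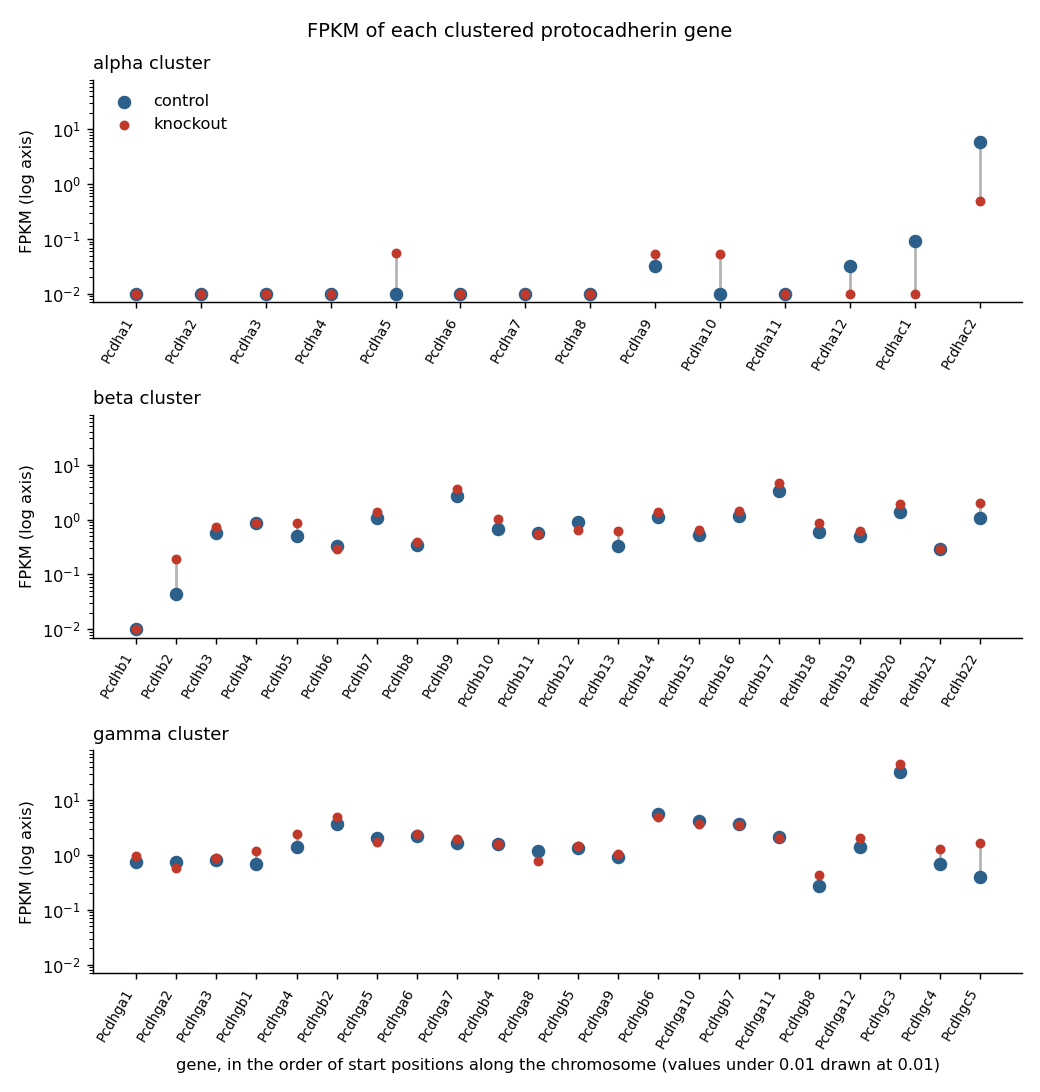
FPKM (log axis, 1 point per library) of each alpha, beta and gamma gene, in the order of starts along the chromosome. In the alpha cluster Pcdhac2 stands alone in the control pool, while the gamma genes are all detected in both libraries and Pcdhgc3 stands above the rest.

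The A and B genes of the gamma cluster were spread around equality. Pcdhga4 was at 2.40 FPKM in the knockout pool and 1.42 in the control pool (ratio 1.69, 1.31 to 2.20). Pcdhgb2 was at 4.93 and 3.72 (ratio 1.33, 1.12 to 1.56), and Pcdhga12 at 2.06 and 1.42 (ratio 1.46, 1.14 to 1.89). Other genes of these subfamilies over 1 FPKM in the mean differed less, and some were lower in the knockout library. Pcdhgb6 was at 4.90 in the knockout pool and 5.48 in the control pool, Pcdhga10 at 3.67 and 4.23, and Pcdhgb7 at 3.50 and 3.70. For Pcdhga5, Pcdhga6, Pcdhga7, Pcdhga11, Pcdhgb4 and Pcdhgb5, each between 1.32 and 2.43 FPKM in both libraries, the interval of the ratio included equality. By the plain ratio 5 of the 22 gamma genes had a 1.5-fold or higher level in the knockout pool, where 13.1% of all genes with 20 or more reads had. They were Pcdhgc4, Pcdhgc5, Pcdhga4 and the rarer Pcdhgb1 and Pcdhgb8. Pcdhga8 had the lowest ratio of the cluster, at 0.786 FPKM in the knockout pool and 1.17 in the control pool. Its ratio of 0.670 is just short of 1.5-fold lower, and it passed under each of 3 other scalings (0.629 to 0.639).

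Outside the clusters, the 2 detected delta-1 genes differed in opposite directions. Pcdh1 (chromosome 18, 38356348 to 38369416), an adhesion protein of airway epithelium, was the most abundant member in the control pool. It was at 30.1 FPKM in the knockout library (about 1497 reads) and 46.8 in the control pool (about 3006 reads), 1.56-fold lower in the knockout pool (1.46 to 1.66). Pcdh7 (chromosome 5, 58109260 to 58523479) was at 1.91 and 0.849 FPKM, 2.25-fold higher in the knockout pool (1.74 to 2.96). Its 5610-base row was at 1.28 FPKM in the knockout pool and 0.429 in the control pool (ratio 2.997, 2.03 to 4.42). Its 7741-base row was at 0.624 and 0.421 (ratio 1.48). Of the other delta-1 genes, Pcdh9 was listed at 0 in the knockout pool and at 0.0586 FPKM in the control pool, about 5 reads, and Pcdh11x at 0.0170 and 0.

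Of the 3 genes that belong to neither delta group, Pcdh12 (chromosome 18, 38426746 to 38444055) is known from endothelial cell contacts. It was at 9.30 FPKM in the knockout pool and 7.36 in the control pool (ratio 1.26, 1.13 to 1.41). Pcdh20 (chromosome 14, 88864554 to 88871203) was rare, at 0.0511 FPKM in the knockout library (about 3.4 reads) and 0.360 in the control pool (about 31.1 reads). That is 7.05-fold lower, with a wide interval of 2.50 to 40.9. Pcdh15, a protocadherin of the hair cells of the ear with 14 rows here, was at 0.00884 FPKM in the knockout pool and 0 in the control pool.

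The delta-2 genes that were detected all had the higher level in the knockout library. Pcdh18 (chromosome 3, 49547218 to 49561238) was at 16.1 FPKM in the knockout pool and 10.4 in the control pool (ratio 1.55, 1.41 to 1.69), and Pcdh17 (chromosome 14, 84843370 to 84936867) at 6.72 and 4.51 (ratio 1.49, 1.34 to 1.65). These ratios lie on either side of 1.5, and neither gene passes it on the log2(FPKM + 1) scale, where Pcdh18 reached a difference of 0.58. With 3 other scalings the plain ratio of Pcdh18 was also under 1.5, at 1.45 to 1.48. Pcdh19, a homophilic adhesion protein encoded on the X chromosome, was at 0.755 and 0.587 FPKM (ratio 1.29, 0.963 to 1.72). Its 2 rows switched between libraries: in the knockout library the whole level stood on the 10294-base row and in the control pool on the 10150-base row, so that only its sum was read. Pcdh8 and Pcdh10 were listed at 0 in both libraries.

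The start regions of 4 non-clustered genes are shown as a selection. Of these, Pcdh7, Pcdh17 and Pcdh18 were higher in the knockout pool and Pcdh20 lower. The selection follows levels in part, since all 4 had 20 or more reads and a ratio interval that excludes equality. No non-clustered gene with fewer reads, or with an interval that includes equality, is shown. Levels alone do not define the selection. Pcdh1, also lower (30.1 and 46.8 FPKM), and Pcdh12, higher (9.30 and 7.36 FPKM), meet both conditions and are not shown. The lower direction is therefore shown by Pcdh20 alone, which rests on about 3.4 and 31.1 reads. Each region shown is the 250 bases before the annotated start, 5′ to 3′ on the gene's strand, from RefSeq on GRCm38.p6. This is the plus strand for Pcdh7 and Pcdh17 and the minus strand for Pcdh18 and Pcdh20. Pcdh18 is at chr3:49757317-49757566, Pcdh7 at chr5:57717831-57718080, Pcdh17 at chr14:84443313-84443562 and Pcdh20 at chr14:88471397-88471646. Capitals mark TAAACA, the core that forkhead proteins such as FOXF1 are known to bind, searched on both strands (TGTTTA on the reverse).
Pcdh18: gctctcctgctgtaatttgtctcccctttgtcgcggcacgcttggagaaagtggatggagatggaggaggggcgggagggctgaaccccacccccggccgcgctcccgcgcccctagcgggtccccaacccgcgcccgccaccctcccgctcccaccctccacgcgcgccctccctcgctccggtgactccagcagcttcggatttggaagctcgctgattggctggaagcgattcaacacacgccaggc
Pcdh7: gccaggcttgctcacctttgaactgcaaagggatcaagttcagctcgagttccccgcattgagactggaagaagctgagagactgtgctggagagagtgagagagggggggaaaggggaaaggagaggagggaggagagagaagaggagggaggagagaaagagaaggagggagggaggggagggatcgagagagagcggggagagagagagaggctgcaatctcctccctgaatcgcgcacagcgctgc
Pcdh17: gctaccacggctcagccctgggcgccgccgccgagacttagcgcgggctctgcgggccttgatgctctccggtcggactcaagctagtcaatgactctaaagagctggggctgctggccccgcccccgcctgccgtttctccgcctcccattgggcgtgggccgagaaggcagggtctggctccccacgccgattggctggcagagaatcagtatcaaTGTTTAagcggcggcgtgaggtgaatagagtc
Pcdh20: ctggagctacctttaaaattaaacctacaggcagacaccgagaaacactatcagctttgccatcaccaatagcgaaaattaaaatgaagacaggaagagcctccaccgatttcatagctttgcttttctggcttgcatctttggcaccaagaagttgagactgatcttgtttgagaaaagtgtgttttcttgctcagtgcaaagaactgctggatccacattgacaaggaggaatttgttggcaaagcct
The motif was found in Pcdh17 alone of these 4, and in 1 of the 9 members with an entry. Among all 32851 windows of this kind 12.0% hold it. The windows of Pcdh18 and Pcdh17 hold 23 and 21 CG pairs and those of Pcdh7 and Pcdh20 hold 7 and 3, beside a median of 6 over all windows. A match describes letters in the window and is no measured binding site.

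Genes that act with protocadherins were counted in lists. Of all genes over 1 FPKM, 9.41% were at least 1.5-fold higher on the log2(FPKM + 1) scale and 4.63% at least 1.5-fold lower. Of 19 regulators of the clusters over 1 FPKM, among them Ctcf (21.2 in the knockout pool and 19.8 in the control pool) and the cohesin subunit Rad21 (63.8 and 43.8), 1 was at least 1.5-fold higher on the log2(FPKM + 1) scale and 0 were lower. The one was Dnmt1, the maintenance DNA methyltransferase, at 17.0 and 9.65 FPKM. Trim28, a corepressor, was at 36.9 and 28.1. Of 19 cytoplasmic partners over 1 FPKM, 0 passed 1.5-fold in either direction on the same log2 scale. Their most abundant members, Ctnnb1 (293.5 and 238.6 FPKM) and Rac1 (208.6 and 199.2), encode beta-catenin and a small GTPase of the cytoskeleton. Of these 19, the receptor Ret had the highest difference on that scale (1.92 and 1.06 FPKM, a plain ratio of 1.81) and the kinase Taok2 the lowest (32.7 and 41.0). The median log2 differences of the 2 lists, 0.05 and 0.07, were close to the 0.05 of all genes.

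The proteases that cut protocadherins and the genes beside the clusters were measured in the same way. Adam10, the protease that sheds the extracellular part, was at 43.5 FPKM in the knockout pool and 28.4 in the control pool, the one of 6 proteases past 1.5-fold. It was only just past, with a ratio of 1.53 and an interval of 1.44 to 1.62 that includes 1.5. Of the gamma-secretase genes, Aph1a (62.8 and 61.4) and Psenen (61.6 and 63.5) were the most abundant and Psen2 (13.9 and 14.9) had the lowest ratio. Within 500000 bases of the clusters, 24 other genes exceeded 1 FPKM, of which Hbegf (43.0 and 17.9) and Cd14 (18.1 and 10.5) were at least 1.5-fold higher and Arap3 (34.8 and 57.6) was at least 1.5-fold lower. Of all genes over 1 FPKM, 9.41% were at least 1.5-fold higher and 4.63% at least 1.5-fold lower on the log2(FPKM + 1) scale. The median log2 difference of these 24 genes was 0.12, beside 0.05 for all genes over 1 FPKM. The most abundant of the 24, Ndufa2, was at 77.0 and 66.3 FPKM.

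Markers of lung cell types also differed between the pools. They were counted on the log2(FPKM + 1) scale, where 9.41% of all genes over 1 FPKM were at least 1.5-fold higher and 4.63% lower. The 5 airway epithelium markers summed to 24620 FPKM in the knockout pool and 39150 in the control pool. Of these 5, 4 were at least 1.5-fold lower. Markers of smooth muscle and pericytes summed to 382 and 186 FPKM (3 of 6 at least 1.5-fold higher). Fibroblast markers summed to 465 and 303 (2 of 6) and mesothelium markers to 87.3 and 56.6 (2 of 4). The fibroblast markers did not differ as 1 group. Col1a1 (112.6 and 43.4) and Col1a2 (175.1 and 77.7) passed 1.5-fold and made up the difference between the fibroblast sums. Pdgfra and Lum were higher by less, and Dcn (50.6 and 66.3) and Tcf21 (55.9 and 59.6) were lower in the knockout pool. Endothelium markers summed to 1115 and 944 FPKM. Of the 8, Emcn (153.2 and 29.99) and Kdr (102.7 and 65.8) were at least 1.5-fold higher and Erg (17.8 and 30.6) at least 1.5-fold lower, and Emcn made up most of the difference between the sums. Alveolar epithelium markers summed to 17100 and 19800 FPKM and macrophage markers to 114 and 72.5, with 0 of 5 and 2 of 4 past 1.5-fold. Markers of dividing cells summed to 86.8 and 7.59 FPKM, and all 5 were higher. Neuronal markers, of the cells in which clustered genes are best known, were mostly near 0: 2 of 8 exceeded 1 FPKM, Stmn2 (23.7 and 29.1) and Tubb3 (2.87 and 0.400), Th was at 0 in both libraries, and Rbfox3 was at 0.203 and 1.28. Of 6 glial markers, Mbp (9.41 and 10.3) exceeded 1 FPKM, and Sox10 was at 0 in both libraries. The part of these cell types in the protocadherin differences was not tested.

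**Figure D5:**
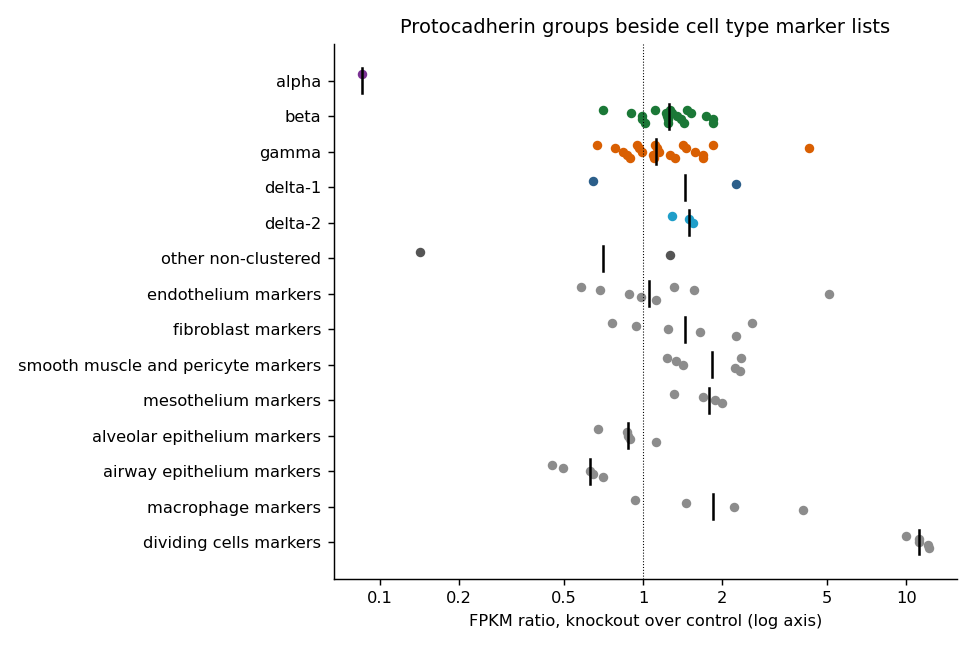
Ratio of knockout to control FPKM (log axis), 1 point per gene, for protocadherins with 20 or more approximate reads and for cell type markers. Bars are medians. Markers under a mean of 1 FPKM and all neuronal and glial markers are not drawn. The airway markers lie below equality, the dividing-cell markers near 10, and Pcdhac2 lies below every marker shown.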

How the data were processed

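Lung RNA of 2 groups, 1 pooled library each, was compared. Groups follow the genotype that each label states. The authors deposited FPKM values for 28107 RefSeq transcripts per library, with a status and a position. A coverage column, which per the file headers stands beside FPKM, gives the mean number of read bases over each base of a transcript. The submitters' processing notes name mm9 and DESeq. Aligner, quantifier, versions and what DESeq was used for were not given in the sources used here. Because FPKM is relative to the library total, very abundant lung transcripts affect every other value.

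Rows of a symbol were summed. Values under 0.001 FPKM were read as about 0. Coverage times length, in genes with 1 row, had a median of 47.6 bases per read in the knockout pool and 47.5 in the control pool between 36 and 66 bases, and this was used to turn coverage into approximate reads. Reads without molecular identifiers are not independent molecules, so the intervals cover counting error only. Log2 differences used a pseudocount of 1 and a mean of 1 FPKM or more. Plain ratios used genes with 20 or more reads. With 1 library per group no test was made. Starts are counted from 1. Windows of 48 bases came from GENCODE M21 transcripts (GRCm38), matched through their RefSeq identifiers for 89 of the 90 rows.

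The members and lists were chosen with earlier results of these data known. Members named in the text are those with a mean of 1 FPKM or more, all non-clustered genes, the C-type genes and, per cluster, the most abundant and the highest and lowest ratio. From other lists the highest and lowest log2 difference and the 2 most abundant genes are named, and a few more were chosen after their values were seen. A few list genes are not reported here. Alternatives tried were other pseudocounts, level floors, folds, scalings and read filters, the most abundant row per symbol, and sums without the C-type or most abundant genes. Scripts were checked on simulated data. Python 3.11.15, numpy 2.4.6, pandas 2.3.3, scipy 1.17.1 and matplotlib 3.10.9 were used.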

Additional observations from a re-analysis of the deposited data

How the results depend on the processing

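With 1 pool per genotype, differences between mice and between pools cannot be separated, and members under about 20 reads allow no statement on direction. No paired analysis was possible because each group holds 1 library. The 2 members higher on the log2(FPKM + 1) scale became 5 with a pseudocount of 0.1, 0 with a pseudocount of 3 or a floor of 5 FPKM, and 1 under each of 3 other scalings (Pcdhgc5 lost) or with the most abundant row per symbol (Pcdh7 lost). The 2 lower members became 1 with the floor of 5 FPKM. The median log2 difference of the 27 members over 1 FPKM, 0.20, became 0.33 with a pseudocount of 0.1. With a floor of 5 FPKM the median was 0.39, and with no floor 0.073. The 11 members higher by the plain ratio became 2 at a fold of 2 and 9 with median-ratio scaling, and the 3 lower became 4 with that scaling. The alpha ratio of 0.110 reversed to 1.04 without Pcdhac2 and to 2.51 without both C-type genes, sums of a few reads. The gamma ratio of 1.25 became 1.11 without Pcdhgc3, 1.06 without the C-type genes, 1.20 with median-ratio scaling and 1.19 with upper-quartile scaling. Under the 3 scalings, 98 of 99 ratios of named members stayed inside their counting interval; the exception was Pcdhgc3, at 1.34 (1.42 as reported) with the 100 most abundant genes left out of the total.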

Other observations

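Other members of the cadherin superfamily were measured in the same libraries. Of 5 listed cadherins over 1 FPKM, the one past 1.5-fold on the log2(FPKM + 1) scale was Cdh11, a cadherin of mesenchymal cells. It was at 27.9 FPKM in the knockout pool and 15.6 in the control pool. On that scale 9.41% of all genes over 1 FPKM were at least 1.5-fold higher and 4.63% lower. Cdh5, the endothelial VE-cadherin, was at 189.3 and 213.8 FPKM, Cdh1, the epithelial E-cadherin, at 73.6 and 73.8, and Cdh13, which is anchored to the membrane by a lipid, at 11.3 and 14.2, the lowest ratio of the list.

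Among 7 more distant relatives over 1 FPKM, Dchs1 (Dachsous) was at 4.67 FPKM in the knockout pool and 2.71 in the control pool, and Fat4, which encodes its receptor, at 1.82 and 1.16. Fat1 was at 7.43 and 5.90. Clstn1, encoding a calsyntenin, was lower, at 39.8 and 63.9 FPKM. Of the cadherin-related genes, Cdhr3, a gene of ciliated airway cells, was at 3.43 and 7.05 FPKM and Cdhr4 at 4.46 and 7.19. Fat4, Cdhr3 and Cdhr4 were picked after their values were seen.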
